A study of Mus musculus with 8 samples.

Results

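Ion channels, ion pumps and calcium release channels of the pancreatic islet were followed in RNA-seq libraries from mouse islets, the small endocrine clusters within the pancreas. The 35 genes comprised both subunits of the ATP-sensitive potassium (KATP) channel, voltage-gated calcium, potassium and sodium channels, TRPM cation channels, a chloride transporter, and the pumps, exchangers and receptors that move calcium across the endoplasmic reticulum and the plasma membrane. They were taken by gene symbol from the 22632 genes listed, in which they filled 37 entries because Kcnb2 and Scn8a had a second entry each, and 34 of the 35 passed the filter on low values and were tested. Islets came from C57BL/6 mice that were either wild type or littermates with both copies of Tcf7 disrupted, where Tcf7 encodes TCF-1, a DNA-binding partner of beta-catenin in Wnt signalling. Each genotype was sampled at 8 weeks of age on a diet with 10% fat and at 20 weeks of age on a diet with 45% fat, with 2 libraries in each of the 4 groups. Age and diet changed together, so a difference between 8 and 20 weeks cannot be told apart from a difference between the diets, and "setting" below means both. Any difference in library handling between the 8-week and 20-week libraries could not be told apart from setting either. The part of Tcf7 that was deleted, the cells in which it was deleted and the number of animals behind a library were not stated in the labels. Where libraries of a group did not come from separate animals, the p-values measure only technical spread.

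A beta cell turns a rise in blood glucose into insulin release by way of its membrane potential. ATP made from glucose closes the KATP channel, the membrane depolarises, voltage-gated calcium channels open, and the incoming calcium drives the fusion of insulin granules. Voltage-gated and calcium-activated potassium channels then repolarise the cell, while SERCA pumps refill the endoplasmic reticulum and IP3 and ryanodine receptors release calcium from it.

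RNA abundance was given as RPM, reads scaled to the library total. The totals, worked out from the RPM values themselves, were 58.7 to 191 M reads. The listed genes took 41.6% to 51.0% of the total at 8 weeks and 55.7% to 61.2% at 20 weeks. Beta cell markers, led by Ins1 and Ins2, summed to 48708 to 56536 RPM at 8 weeks and 37848 to 57689 RPM at 20 weeks, so the labelled tissue was borne out by its hormone genes. The 6 alpha cell markers summed to 3809 to 5814 RPM at 8 weeks and 1916 to 3386 RPM at 20 weeks, and 5 of the 6 were called lower at 20 weeks. The 4 delta and PP cell markers summed to 1658 to 2565 RPM and 827 to 1465 RPM, with 2 called lower. Of the stromal and mural markers 5 of 7 tested were called lower, with sums of 37.5 to 72.6 RPM and 21.8 to 39.3 RPM. Of the neuronal and glial markers, cells that share many of these channels, 5 of 8 tested were lower, with sums of 40.5 to 74.1 RPM and 25.5 to 41.7 RPM. The part of these lists in the results below was not tested. The 16 acinar markers, which mark the enzyme-secreting tissue around the islets, summed to 3198 to 25923 RPM at 8 weeks and 9581 to 30799 RPM at 20 weeks. Tcf7 itself showed no loss of reads under the knockout label. At 8 weeks Tcf7 measured 0.277 and 0.381 RPM in the wild-type pair against 0.512 and 0.519 RPM. At 20 weeks the pairs were at 1.58 and 0.991 RPM against 4.56 and 2.56 RPM. Reads from an undeleted part of the gene would still be counted, so genotype directions below rest on the labels.

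The first library labelled knockout at 8 weeks stood apart from the other 7. The 35 genes together took 3396 RPM there, against 4452 to 5654 RPM in the other 8-week libraries and 7969 to 9784 RPM at 20 weeks. It also had the highest acinar sum of the 8-week libraries, 25923 RPM against 3198 to 13154 RPM. Its part in the results below was measured by leaving it out. In bulk islets, fewer cells of a type and less RNA per cell cannot be told apart.

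**Figure D1:**
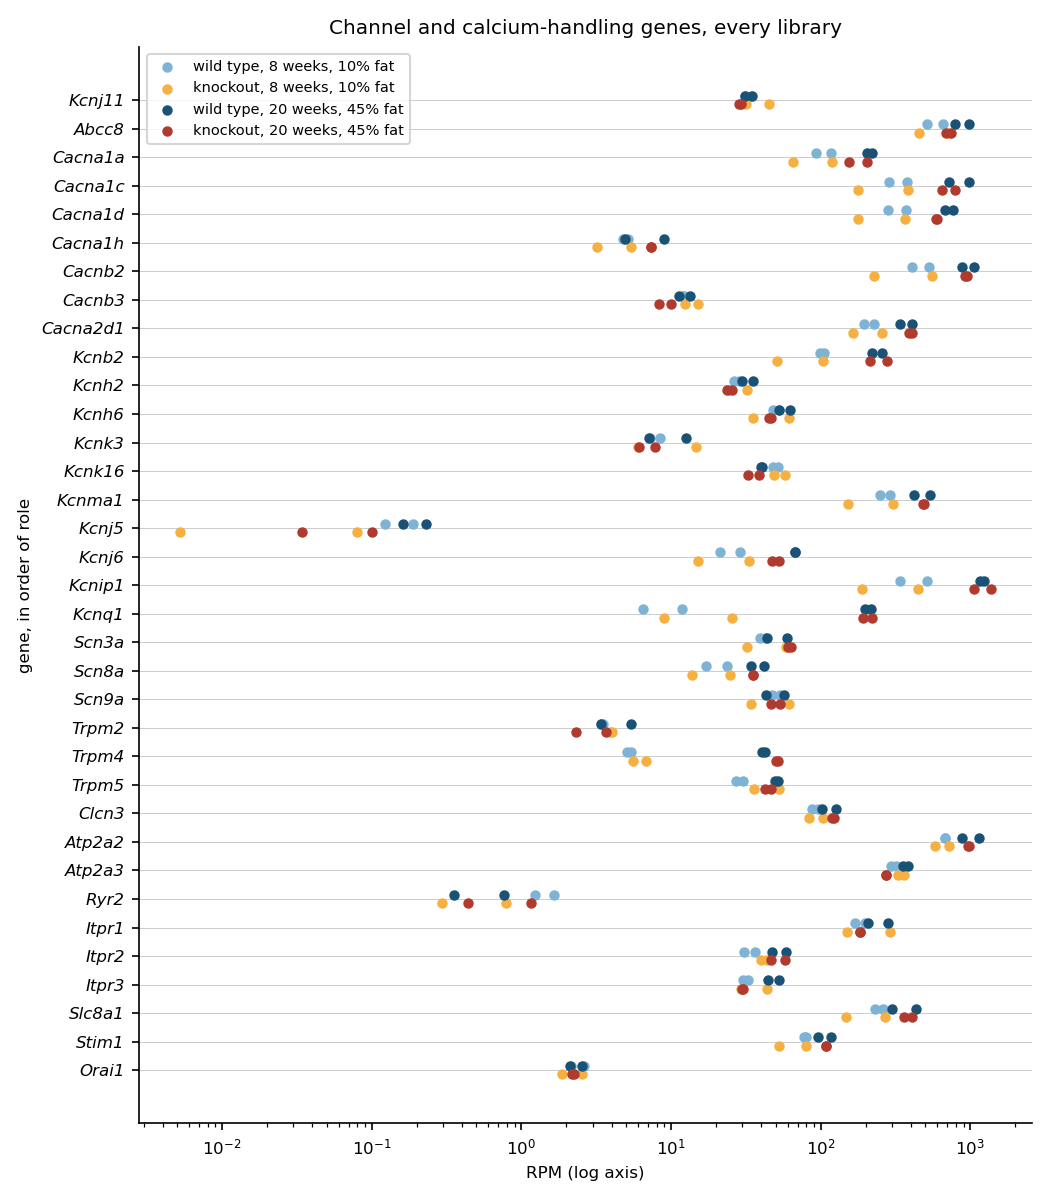
RPM of each of the 35 genes in each of the 8 libraries, on a log axis, with genes in order of role and colours for the 4 groups. Most calcium channel subunits and several potassium channels have the 4 libraries of 20 weeks to the right of the 4 of 8 weeks, Kcnq1 and Trpm4 by the widest gaps, while Kcnj11, Atp2a3 and Orai1 overlap.

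Genotype moved none of these genes past the test at either setting, and the setting moved about as many as not. Between knockout-labelled and wild-type libraries, 0 of 34 genes were called higher and 0 lower at 8 weeks, where 0.015% and 0.195% of all 13347 genes tested were called, by limma with a Benjamini-Hochberg adjusted p under 0.05. At 20 weeks the counts were again 0 and 0, beside 0.03% and 0.015% of all genes. Between 8 and 20 weeks, averaged over genotypes, 16 of 34 were called higher and 1 lower, beside 31.2% and 6.05% of all genes tested. All 4 libraries of 20 weeks lay above all 4 of 8 weeks for 16 genes, beside 30.4% of all genes, and below them for 1, beside 8.19%. The median log2 fold change was 0.47 over the 34 genes and 0.17 over all genes tested. Another scaling, the median of ratios, set the median of all genes to -0.02 and that of the 34 genes to 0.24, and changed the split to 15 higher and 4 lower, beside 29.4% and 29.6% of all genes. With no filter on low values 9 of the 17 calls were kept, and those of Cacna1d, Cacna1h, Cacnb2, Itpr2, Kcnma1, Scn8a, Slc8a1 and Stim1 were lost. That fit held all 22632 genes, and the share of them called is not given here.

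TCF-1 binds DNA at a short core motif, so the promoters of these genes were searched for it. RefSeq promoter windows on GRCm38.p6, from 250 bases before to 50 bases after a transcription start, were at hand for 24 of the 35 genes, 34 windows in all. The core, spelled CTTTGNN with A or T at each N and read on both strands, lay in 6 windows, or 17.6%, against 16.9% of all 32851 windows. Those 6 windows belonged to Cacna1c, Cacnb2, Cacnb3, Clcn3, Scn8a and Scn9a. The 3 windows of genes that were higher at 20 weeks are printed below because they show the motif in its surroundings, with the core in capitals, 5′ to 3′ along the gene's strand.
Cacna1c, chr6:119196360-119196659, minus strand: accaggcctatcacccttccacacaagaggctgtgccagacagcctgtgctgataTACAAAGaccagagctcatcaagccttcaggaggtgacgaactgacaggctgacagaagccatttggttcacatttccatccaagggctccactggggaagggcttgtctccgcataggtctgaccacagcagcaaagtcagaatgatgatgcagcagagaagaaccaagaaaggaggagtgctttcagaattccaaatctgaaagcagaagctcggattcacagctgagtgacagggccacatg
Cacnb2, chr2:14823842-14824141, plus strand: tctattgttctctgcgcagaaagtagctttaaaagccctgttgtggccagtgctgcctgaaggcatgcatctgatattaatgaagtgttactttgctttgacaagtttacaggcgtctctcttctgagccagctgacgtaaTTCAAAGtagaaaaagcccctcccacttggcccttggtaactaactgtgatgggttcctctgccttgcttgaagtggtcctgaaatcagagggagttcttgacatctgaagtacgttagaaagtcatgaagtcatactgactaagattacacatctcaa
Scn8a, chr15:100936021-100936320, plus strand: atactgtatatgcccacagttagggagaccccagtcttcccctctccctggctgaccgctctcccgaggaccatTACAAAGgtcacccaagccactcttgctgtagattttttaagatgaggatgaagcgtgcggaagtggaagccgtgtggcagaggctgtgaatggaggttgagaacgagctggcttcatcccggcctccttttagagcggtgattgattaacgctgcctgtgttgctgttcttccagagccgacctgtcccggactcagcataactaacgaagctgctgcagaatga
A match is a description of letters in this window. None of the 6 genes passed the genotype test.

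The KATP channel did not pass the test for setting or genotype in either of its subunits. Kcnj11 encodes the pore Kir6.2 and had 1682 to 7387 reads a library. Kcnj11 measured 31.0 and 34.3 RPM in the wild-type pair and 31.5 and 45.1 RPM in the knockout-labelled pair at 8 weeks, then 34.98 and 31.2 RPM and 28.6 and 29.4 RPM at 20 weeks. The groups overlapped between settings, with a log2 fold change of -0.17 ± 0.16 (SE; 95% interval -0.50 to 0.16; limma adjusted p = 0.41). Under median-of-ratios scaling Kcnj11 was called lower, at -0.39 (adjusted p = 0.00088), with the median of all genes at -0.02 there. Abcc8 encodes SUR1, the subunit that sulfonylurea drugs bind. Abcc8 measured 515 and 659 RPM in the wild-type pair and 455 and 725 RPM in the knockout-labelled pair at 8 weeks, then 983 and 786 RPM and 741 and 688 RPM at 20 weeks. Its lowest 20-week library lay below the highest 8-week one, and the log2 fold change of 0.45 ± 0.25 did not pass (limma adjusted p = 0.16). Without the second knockout-labelled library of 8 weeks it did, at 0.62 (adjusted p = 0.019).

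Levels between genes can only be set side by side per length, and the labels do not say whether reads in introns were counted. Per kilobase of exon, the highest 8-week means were those of Atp2a2 at 109 RPM, Abcc8 at 72.7 RPM, Atp2a3 at 61.6 RPM and Kcnip1 at 60.0 RPM. Per kilobase of the gene's whole span, Atp2a2 at 13.6 RPM, Atp2a3 at 10.2 RPM and Abcc8 at 7.79 RPM led, and Kcnip1 fell to 1.02 RPM. Kcnj11 held 9.64 RPM per kilobase of exon and 5.21 RPM per kilobase of span. The order of levels thus depended on the length used for genes with long introns.

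Among voltage-gated calcium channels, 6 of 7 subunit genes were called higher at 20 weeks on 45% fat, beside 31.2% of all genes tested. The median log2 fold change of the 7 was 1.01, against 0.17 over all genes. Cacna1a, Cacna1c, Cacna1d, Cacna2d1 and Cacnb2 lie in the longest of 5 equal classes by intron length, where 65.8% of all genes were called higher. Cacna1c and Cacna1d encode the pores of the L-type channels, which carry much of the calcium that starts insulin release. Cacna1c measured 285 and 377 RPM in the wild-type pair and 176 and 384 RPM in the knockout-labelled pair at 8 weeks, then 982 and 720 RPM and 793 and 647 RPM at 20 weeks. All 4 libraries of 20 weeks lay above all 4 of 8 weeks, by a log2 fold change of 1.41 ± 0.26, or 2.65-fold (limma adjusted p = 0.00038). Cacna1d measured 282 and 369 RPM in the wild-type pair and 177 and 366 RPM in the knockout-labelled pair at 8 weeks, then 766 and 681 RPM and 592 and 599 RPM at 20 weeks. The settings did not overlap here either, with a log2 fold change of 1.19 ± 0.25 (limma adjusted p = 0.00096).

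Cacna1a encodes the pore of the P/Q-type channel. Cacna1a measured 93.0 and 117 RPM in the wild-type pair and 65.3 and 119 RPM in the knockout-labelled pair at 8 weeks, then 222 and 205 RPM and 203 and 156 RPM at 20 weeks. The settings did not overlap, with a log2 fold change of 1.01 ± 0.21 (limma adjusted p = 0.00084). Cacnb2 encodes a cytoplasmic beta subunit that brings the pore to the membrane. Cacnb2 measured 405 and 530 RPM in the wild-type pair and 227 and 555 RPM in the knockout-labelled pair at 8 weeks, then 1061 and 877 RPM and 919 and 956 RPM at 20 weeks. Every 20-week library was above every 8-week library, with a log2 fold change of 1.23 ± 0.27 (limma adjusted p = 0.0019). Cacna2d1, an extracellular alpha2delta subunit, ran from 165 to 255 RPM at 8 weeks and from 338 to 406 RPM at 20 weeks, a log2 fold change of 0.87 ± 0.21 (limma adjusted p = 0.003). Cacna1h, the pore of a T-type channel that opens near the resting potential, was low, at 3.21 to 5.42 RPM and 4.94 to 8.96 RPM, and its settings overlapped. Its call, with a log2 fold change of 0.52 ± 0.18 (limma adjusted p = 0.027), was lost under median-of-ratios scaling and without any one of 4 libraries, with adjusted p of 0.059 to 0.19. Those were the first knockout-labelled library of 8 weeks, the first wild-type library of 20 weeks and both knockout-labelled libraries of 20 weeks. Cacnb3, a second beta subunit, was the one calcium channel gene not called, at 12.0 to 15.2 RPM and 8.31 to 13.4 RPM, with a log2 fold change of -0.25 ± 0.15 (limma adjusted p = 0.18). Median-of-ratios scaling called it lower, at -0.46.

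Of the 10 potassium channel genes, 9 were tested, with a median log2 fold change of 1.001. At 20 weeks 5 were called higher and 1 lower, beside 31.2% and 6.05% of all genes tested. The 5 called higher, Kcnb2, Kcnip1, Kcnj6, Kcnma1 and Kcnq1, are also in the class of longest introns, where 65.8% of all genes were. Kcnq1 encodes a voltage-gated pore in an imprinted region and showed the widest change of the 34 genes. Kcnq1 measured 6.51 and 11.8 RPM in the wild-type pair and 8.997 and 25.6 RPM in the knockout-labelled pair at 8 weeks, then 217 and 198 RPM and 193 and 221 RPM at 20 weeks. All 4 libraries of 20 weeks were far above all 4 of 8 weeks, with a log2 fold change of 4.04 ± 0.24, or 16.5-fold (limma adjusted p = 1.5e-10). Kcnip1 encodes a calcium-binding accessory subunit of A-type potassium channels. Kcnip1 measured 341 and 513 RPM in the wild-type pair and 190 and 445 RPM in the knockout-labelled pair at 8 weeks, then 1224 and 1156 RPM and 1383 and 1057 RPM at 20 weeks. Its settings were clearly apart, with a log2 fold change of 1.78 ± 0.28, or 3.43-fold (limma adjusted p = 7.3e-05).

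Kcnb2 encodes the delayed rectifier pore Kv2.2. Kcnb2 measured 98.3 and 105 RPM in the wild-type pair and 51.2 and 104 RPM in the knockout-labelled pair at 8 weeks, then 257 and 221 RPM and 279 and 214 RPM at 20 weeks. The settings did not overlap, with a log2 fold change of 1.47 ± 0.21 (limma adjusted p = 3.1e-05). The second entry of Kcnb2, with an identifier of its own and 2.06 to 4.03 RPM, had a log2 fold change of 0.38 ± 0.14 (limma adjusted p = 0.038). Kcnj6 encodes a pore opened by G protein subunits. Kcnj6 measured 21.3 and 28.8 RPM in the wild-type pair and 15.1 and 33.3 RPM in the knockout-labelled pair at 8 weeks, then 67.1 and 67.6 RPM and 52.8 and 47.1 RPM at 20 weeks. All 20-week libraries were higher, by 1.26 ± 0.20 on the log2 scale (limma adjusted p = 8.7e-05). Kcnma1 encodes the pore of the large-conductance, calcium-activated BK channel. Kcnma1 measured 249 and 290 RPM in the wild-type pair and 151 and 303 RPM in the knockout-labelled pair at 8 weeks, then 541 and 419 RPM and 482 and 491 RPM at 20 weeks. Its log2 fold change was 1.001 ± 0.23 (limma adjusted p = 0.0027), again with no overlap.

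Kcnk16, singled out after its values were seen, was the one gene of the 34 called lower. It encodes TALK-1, a potassium leak channel with tandem pore domains that is abundant in beta cells. Kcnk16 measured 51.9 and 47.8 RPM in the wild-type pair and 48.6 and 58.0 RPM in the knockout-labelled pair at 8 weeks, then 40.4 and 39.6 RPM and 32.4 and 38.8 RPM at 20 weeks. All 4 libraries of 20 weeks were below all 4 of 8 weeks, by a log2 fold change of -0.44 ± 0.15 (limma adjusted p = 0.032). The call was lost without any one of the 4 wild-type libraries or either knockout-labelled library of 20 weeks, with adjusted p of 0.058 to 0.18, and with the acinar markers as a covariate (adjusted p = 0.099). Median-of-ratios scaling kept it. The remaining 4 potassium channel genes were not called. Kcnh2 and Kcnh6 of the ERG family stood at 23.8 to 35.2 RPM and 35.5 to 62.0 RPM over all 8 libraries, and Kcnk3, an acid-sensitive leak channel, at 6.05 to 14.8 RPM. Their log2 fold changes of 0.03, 0.08 and -0.08 had 95% intervals of -0.29 to 0.35, -0.29 to 0.46 and -0.54 to 0.37. Under median-of-ratios scaling Kcnh2 was called lower, at -0.19. Kcnj5 had 1 to 39 reads a library, at most 0.231 RPM, and was the gene below the filter.

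Of the voltage-gated sodium channel pores, Scn8a was called higher and Scn3a and Scn9a were not, beside 31.2% of all genes tested. Each is in the class of longest introns, where 65.8% of all genes were called higher. Scn8a ran from 13.8 to 25.0 RPM at 8 weeks and from 34.0 to 41.9 RPM at 20 weeks, a log2 fold change of 0.88 ± 0.18 (limma adjusted p = 0.00097). Its second entry, at 1.12 to 2.31 RPM, had a log2 fold change of 0.31 ± 0.14 (limma adjusted p = 0.094). Scn9a, a main sodium channel of mouse beta cells, stood at 34.4 to 61.2 RPM at 8 weeks and 43.0 to 56.9 RPM at 20 weeks. Its log2 fold change of 0.05 ± 0.19 changed sign under median-of-ratios scaling, to -0.17. Scn3a stood at 32.3 to 58.9 RPM and 43.9 to 63.0 RPM and did not pass, at a log2 fold change of 0.40 ± 0.19 (limma adjusted p = 0.10). Without the second knockout-labelled library of 8 weeks Scn3a passed, at 0.61 (adjusted p = 0.0012).

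The TRPM channels pass cations that depolarise the cell, and Trpm4 and Trpm5 are opened by intracellular calcium. Trpm4 had the smallest p of the 34 genes. Trpm4 measured 5.08 and 5.39 RPM in the wild-type pair and 5.58 and 6.80 RPM in the knockout-labelled pair at 8 weeks, then 42.5 and 40.7 RPM and 50.3 and 52.0 RPM at 20 weeks. The settings were far apart in both genotypes, with a log2 fold change of 2.82 ± 0.14, or 7.05-fold (limma adjusted p = 1e-11). Trpm5 measured 30.4 and 27.0 RPM in the wild-type pair and 52.7 and 35.8 RPM in the knockout-labelled pair at 8 weeks, then 49.4 and 51.5 RPM and 46.9 and 42.6 RPM at 20 weeks. In wild type the 20-week libraries were above those of 8 weeks, by 0.79 ± 0.23 on the log2 scale (limma adjusted p = 0.021), while the knockout-labelled libraries overlapped, with 0.04 ± 0.23. The difference between those changes, the interaction, did not pass, at -0.76 ± 0.32 (limma adjusted p = 1, unadjusted p = 0.031). Averaged over genotypes Trpm5 did not pass, at 0.42 ± 0.16 (limma adjusted p = 0.051), and without the first knockout-labelled library of 8 weeks it did, at 0.55 (adjusted p = 0.0019). Trpm2, gated by ADP-ribose, measured 3.41 and 3.52 RPM in the wild-type pair and 4.06 and 3.90 RPM in the knockout-labelled pair at 8 weeks, then 5.44 and 3.42 RPM and 3.68 and 2.32 RPM at 20 weeks. The settings overlapped, with a log2 fold change of -0.04 ± 0.16. Clcn3, a chloride-proton exchanger of intracellular vesicles, stood at 83.9 to 103 RPM and 102 to 127 RPM and did not pass (log2 fold change 0.34 ± 0.17; limma adjusted p = 0.13). It passed without the second knockout-labelled library of 8 weeks, at 0.41 (adjusted p = 0.019).

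Of the 6 pumps and release channels of the endoplasmic reticulum, 1 was called higher for setting, beside 31.2% of all genes tested. Their median log2 fold change was 0.14, beside 0.17 over all genes. Itpr1, Itpr2 and Ryr2 are in the class of longest introns, where the median was 0.61 and 65.8% of all genes were called higher. Atp2a3 encodes SERCA3, the calcium pump isoform typical of islets. Atp2a3 measured 319 and 296 RPM in the wild-type pair and 327 and 359 RPM in the knockout-labelled pair at 8 weeks, then 382 and 353 RPM and 274 and 273 RPM at 20 weeks. The settings overlapped, with a log2 fold change of -0.03 ± 0.20 (95% interval -0.45 to 0.38). Atp2a2 encodes SERCA2, the isoform found in most cells. Atp2a2 ran from 577 to 724 RPM at 8 weeks and from 882 to 1137 RPM at 20 weeks, without overlap, yet its log2 fold change of 0.58 ± 0.24 did not pass (limma adjusted p = 0.067). Median-of-ratios scaling called Atp2a2 higher, at 0.36 (adjusted p = 0.039), and so did leaving out the second knockout-labelled library of 8 weeks, at 0.67 (adjusted p = 0.016).

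Ryr2, the ryanodine receptor best known from heart muscle, was scarce in islets, with 24 to 191 reads a library. Ryr2 measured 1.65 and 1.23 RPM in the wild-type pair and 0.293 and 0.793 RPM in the knockout-labelled pair at 8 weeks, then 0.763 and 0.355 RPM and 0.443 and 1.17 RPM at 20 weeks. The settings overlapped, with a log2 fold change of -0.22 ± 0.16 (limma adjusted p = 0.31). The IP3 receptors release calcium in response to G protein signalling. Itpr1 stood at 150 to 291 RPM and 182 to 282 RPM, with a log2 fold change of 0.10 ± 0.22. Itpr2 stood at 30.9 to 43.8 RPM and 46.7 to 58.7 RPM and was called higher, at 0.48 ± 0.16 (limma adjusted p = 0.024). That call was lost under median-of-ratios scaling (adjusted p = 0.085) and without either wild-type library of 8 weeks or the first library of either genotype at 20 weeks (adjusted p = 0.055 to 0.16). Itpr3 measured 30.3 and 32.7 RPM in the wild-type pair and 29.1 and 43.5 RPM in the knockout-labelled pair at 8 weeks, then 52.6 and 44.2 RPM and 30.0 and 30.3 RPM at 20 weeks. The wild-type libraries of 20 weeks were the highest of the 8, and the log2 fold change between settings was 0.18 ± 0.16 (limma adjusted p = 0.40). It passed without the second knockout-labelled library of 8 weeks, at 0.32 (adjusted p = 0.035), and turned to -0.03 under median-of-ratios scaling.

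Of the genes for exchange at the plasma membrane and for store-operated entry, Slc8a1 and Stim1 were called higher and Orai1 was not. Of all genes tested, 31.2% were called higher. Slc8a1 and Stim1 are in the class of longest introns, where 65.8% of all genes were. Orai1 is in the second shortest class, where 18.1% were. Slc8a1, the sodium-calcium exchanger NCX1, ran from 147 to 267 RPM at 8 weeks and from 297 to 436 RPM at 20 weeks, a log2 fold change of 0.75 ± 0.23 (limma adjusted p = 0.015). Stim1 senses the calcium level in the endoplasmic reticulum. Stim1 measured 79.7 and 77.7 RPM in the wild-type pair and 52.5 and 79.6 RPM in the knockout-labelled pair at 8 weeks, then 116 and 95.7 RPM and 109 and 108 RPM at 20 weeks. The settings did not overlap, with a log2 fold change of 0.58 ± 0.18 (limma adjusted p = 0.015). Without any one of 3 libraries Slc8a1 lost its call (adjusted p = 0.055 to 0.079), namely the first wild-type library of each setting and the first knockout-labelled library of 20 weeks. Stim1 lost its call without any one of 5 libraries, all but the knockout-labelled ones of 8 weeks and the second wild-type one of 20 weeks (adjusted p = 0.055 to 0.078). Orai1 encodes the membrane pore that Stim1 opens. Orai1 measured 2.15 and 2.62 RPM in the wild-type pair and 1.86 and 2.56 RPM in the knockout-labelled pair at 8 weeks, then 2.56 and 2.12 RPM and 2.23 and 2.19 RPM at 20 weeks. These values overlapped throughout, with a log2 fold change of -0.01 ± 0.14 (95% interval -0.30 to 0.29).

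By genotype, the setting called 10 of 34 genes higher and 0 lower in wild type, beside 16.9% and 1.63% of all genes tested, and 14 higher and 0 lower in the knockout-labelled libraries, beside 19.8% and 2.22%. These contrasts share no library, but all 8 libraries were fitted together, with a shared estimate of the spread of each gene. Their calls are therefore not independent, and the overlap of calls over all genes tested was not counted. Called in both were 9 genes, or 90% of the wild-type calls and 64.3% of the knockout calls, namely Cacna1a, Cacna1c, Cacna1d, Kcnb2, Kcnip1, Kcnj6, Kcnq1, Scn8a and Trpm4. Trpm5 was called in wild type alone, and Cacna2d1, Cacnb2, Kcnma1, Slc8a1 and Stim1 in the knockout-labelled libraries alone. None of these 6 passed the interaction test, so a difference between genotypes in their change was not shown. Counts by genotype rested on single libraries. In wild type they fell to 4 higher without the first library of 8 weeks and 3 without the first of 20 weeks. In the knockout-labelled libraries they fell to 4 higher and 4 lower without the first library of 8 weeks, 4 higher without the first of 20 weeks and 7 without the second.

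At 8 weeks 3 of 34 genes had an unadjusted limma p under 0.05, beside 3.48% of all genes. Ryr2 was lower in the knockout-labelled libraries, by a log2 fold change of -0.68 ± 0.23 (unadjusted p = 0.0089, limma adjusted p = 0.55). Both were below both wild-type libraries. Ryr2 reached the filter of 1 RPM only in that wild-type pair and in the second knockout-labelled library of 20 weeks. Its test thus depended in part on the group in which it was highest. Trpm5 was higher, by 0.58 ± 0.23 (unadjusted p = 0.020, limma adjusted p = 0.87), with both knockout-labelled libraries above both of wild type. Kcnq1 was at 0.74 ± 0.34 (unadjusted p = 0.046, limma adjusted p = 1), and its libraries overlapped. None of the 3 passed the correction. With the first knockout-labelled library of 8 weeks left out, Kcnq1 was called higher at 1.44 (limma adjusted p = 0.042), and with the second left out, Trpm5 was called higher at 0.86 (adjusted p = 0.031) and Kcnb2 lower at -0.98 (adjusted p = 0.047). In those fits 1 library stands for the group, and the knockout-labelled pair of 8 weeks thus decided which genes passed.

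At 20 weeks 1 of 34 genes had an unadjusted limma p under 0.05, beside 4.36% of all genes. Itpr3 was lower in the knockout-labelled libraries, by -0.66 ± 0.23 (95% interval -1.14 to -0.18; unadjusted p = 0.010, limma adjusted p = 0.71). It passed when only the 4 libraries of 20 weeks were fitted (adjusted p = 0.026). The next smallest p-values were those of Trpm2, at -0.44 ± 0.22 (unadjusted p = 0.067, limma adjusted p = 1), and Cacnb3. Cacnb3 measured 12.0 and 12.2 RPM in the wild-type pair and 12.3 and 15.2 RPM in the knockout-labelled pair at 8 weeks, then 13.4 and 11.4 RPM and 8.31 and 10.1 RPM at 20 weeks. Its log2 fold change was -0.40 ± 0.21 (unadjusted p = 0.071, limma adjusted p = 1). At 20 weeks both knockout-labelled libraries were below both wild-type libraries for 13 genes of 34, beside 21.2% of all genes, and above them for 2, Scn3a and Trpm4, beside 12.3%. At 8 weeks they were above for 6 genes beside 7.42% and below for 1, Ryr2, beside 5.72%.

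The interaction called 0 of 34 genes higher and 0 lower, beside 0.0599% and 0.00749% of all genes, and 3 had an unadjusted limma p under 0.05, beside 3.42%. These were Ryr2 at 0.87 ± 0.33 (unadjusted p = 0.016), Itpr3 at -0.83 ± 0.32 (unadjusted p = 0.019) and Trpm5 as given above, with limma adjusted p of 0.88, 0.97 and 1. For Ryr2, the limit given above on how it passed the filter holds here too. edgeR on the recovered reads also called 0 of 34 genes at 8 weeks, at 20 weeks and for the interaction. It called 0.00749% of all genes higher and 0.172% lower at 8 weeks, 0 at 20 weeks and 0.0225% higher for the interaction. By edgeR, 6, 6 and 8 of 34 were at an unadjusted p under 0.05, beside 6.22%, 10.6% and 7.44% of all genes. The 95% interval of the genotype difference stayed within 2-fold either way for 25 of 34 genes at 8 weeks and 26 at 20 weeks. For Kcnj11 it ran from -0.27 to 0.67 at 8 weeks and from -0.65 to 0.29 at 20 weeks on the log2 scale, and for Abcc8 from -0.75 to 0.71 and from -1.03 to 0.43.

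**Figure D2:**
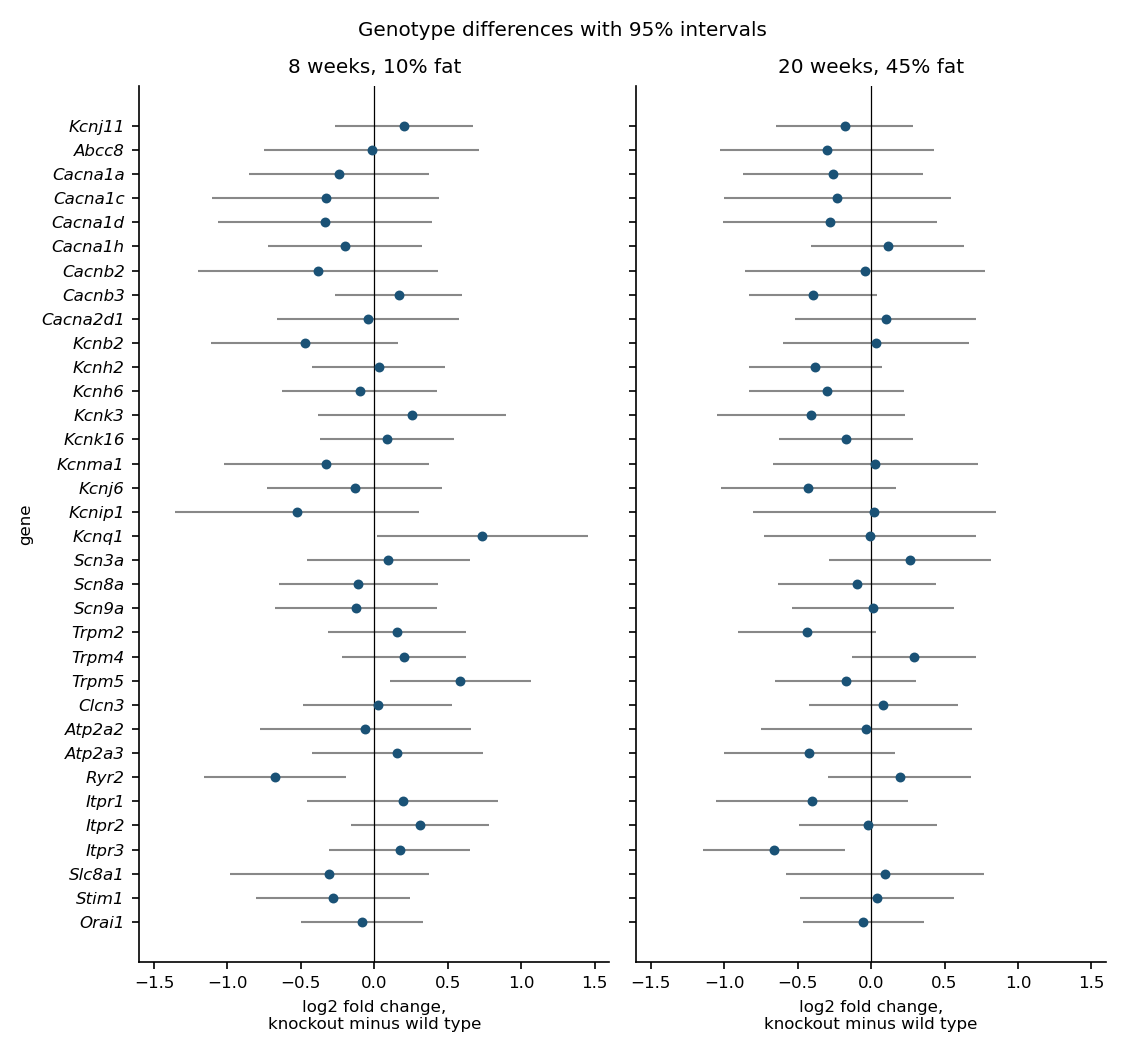
Log2 fold change of knockout-labelled over wild-type libraries for the 34 genes tested at 8 weeks (left) and 20 weeks (right), with limma's 95% intervals as bars and unadjusted for the number of genes. Intervals that leave out 0 are those of Kcnq1, Ryr2 and Trpm5 at 8 weeks and Itpr3 at 20 weeks, and none passed the correction over all genes.

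The rises at 20 weeks were most frequent among genes with long introns, and many of these channel genes are long. Summed intron length had a median of 98.1 kb over the 35 genes against 21.3 kb over all genes tested. Of all genes tested, split into 5 equal classes by intron length, the share called higher at 20 weeks was 14.5%, 18.1%, 20.5%, 35.8% and 65.8% from shortest to longest. The 34 channel genes fell into these classes as 1, 3, 5, 7 and 18, of which 0, 0, 1, 1 and 14 were called higher. In the class of longest introns, above 73.5 kb, the median log2 fold change was 0.94 over the 18 genes and 0.61 over all genes there. Itpr1, Ryr2, Scn3a and Scn9a were the 4 genes of that class that were not called. Spearman's rho of intron length with the fold change was 0.50 across 13212 genes and 0.59 across the 34, as a description, since genes share libraries and are not replicates. The log2 value fell by 0.0384 to 0.165 per 10-fold intron length at 8 weeks and was 0.0699 to 0.109 higher at 20 weeks, relative to each gene's mean. The lowest slope was that of the first knockout-labelled library of 8 weeks.

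**Figure D3:**
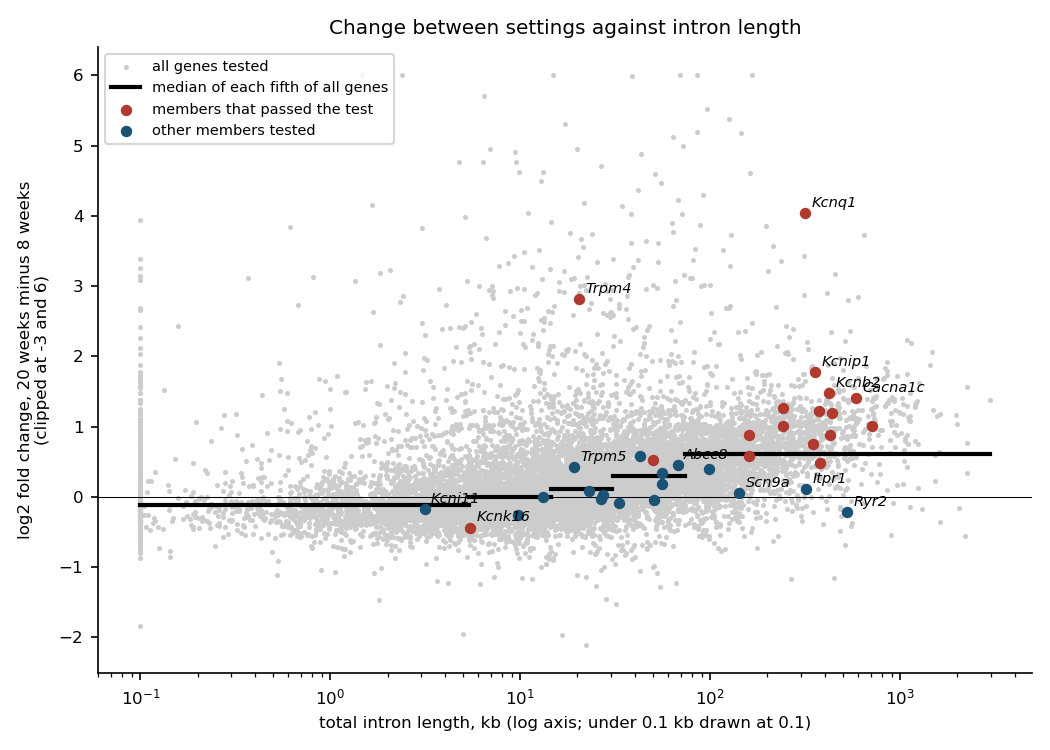
Log2 fold change from 8 to 20 weeks against summed intron length (log axis) for all genes tested (grey) and the 34 channel genes (red where called, blue otherwise). Black bars are the medians of the 5 classes of intron length, which climb from -0.12 to 0.61. Kcnq1 at 4.04 and Trpm4 at 2.82 lie far above the bar of their length, and Ryr2 at -0.22 and Itpr1 at 0.10 lie below theirs.

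Introns filled over 90% of the gene's span for 17 of the 34 genes, and 14 of those were called higher, where 55.8% of all such genes were. Of the 17 genes with a lower share, 2 were called higher, Cacna1h and Trpm4, where 20.8% of all such genes were. When a trend on intron length was removed from each library, 10 of the 34 were higher and 7 lower, beside 23.6% and 22.3% of all genes. Higher in that fit were Atp2a2, Cacna1c, Cacna1d, Cacnb2, Kcnb2, Kcnip1, Kcnj6, Kcnq1, Scn8a and Trpm4, and lower were Cacnb3, Itpr1, Itpr2, Itpr3, Kcnk16, Ryr2 and Scn9a. Kcnq1 kept 3.21 and Trpm4 2.70 on the log2 scale, while Kcnip1 fell to 0.92, Cacna1c to 0.41 and Cacna1d to 0.27. Cacna2d1, Itpr2, Kcnma1, Slc8a1 and Stim1, all called higher on the RPM scale, changed sign, to between -0.04 and -0.40. Cacna1a and Cacna1h also lost their calls there, without a change of sign. In each of the 17 fits that tested them, 6 genes were called higher, Cacna1c, Kcnb2, Kcnip1, Kcnj6, Kcnq1 and Trpm4. These fits include the main fit and reuse the same libraries, and the share of all genes called in every fit was not counted. All of these genes but Trpm4 are in the class of longest introns, where 65.8% of all genes were called higher in the main fit. All 6 genes overlap a gene on the other strand, so the fit without such genes did not test them. The part of intron length in the rises of these and the other genes was not tested further.

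**Figure D4:**
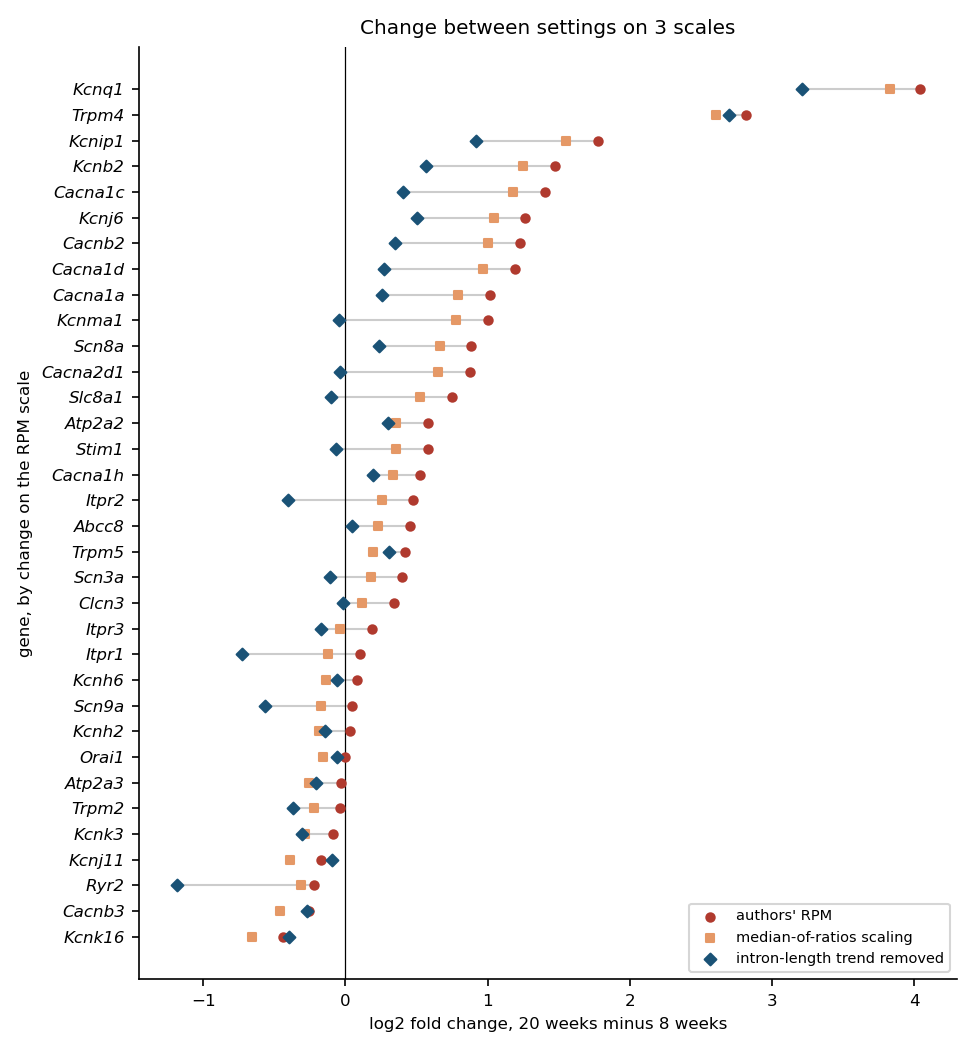
Log2 fold change from 8 to 20 weeks of the 34 genes on 3 scales: the authors' RPM (circles), median-of-ratios scaling (squares) and RPM after removal of the trend on intron length (diamonds). Kcnq1 and Trpm4 stay above 2 on all 3, whereas Kcnma1, Cacna2d1, Slc8a1, Stim1 and Itpr2 cross 0 on the last.

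Genes on the opposite strand overlapped 26 of the 35 genes in the GENCODE M21 annotation, with 52 such partners in all, of which 7 had values here. No label says if strand was kept, so reads of a gene and of its partner cannot be told apart where they overlap. Of the 26 genes with a partner, all tested, 15 were called higher, and of the 8 tested without one, 1 was, Scn8a. Among all genes the shares were 42.4% and 20.99%. Within the class of longest introns they were 68.6% and 60.5%, and 17 of the 18 channel genes there had a partner. A fit of only the genes without a partner called 1 of 8 higher, Scn8a, and 1 lower, Kcnk16, beside 19.7% and 7.1% of all genes in it.

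Of the 7 partners with values, 5 had all 4 libraries of 20 weeks above all 4 of 8 weeks, beside 30.4% of all genes tested. Each of these 5 lies opposite a gene called higher, and so does Dcp1a, whose settings overlapped. Of the 5, Gm11096 and Tpsg1 stayed below the filter of 1 RPM that the genes behind that share had to pass. Kcnmb1, the beta1 subunit of the BK channel, lies opposite Kcnip1 and went from 0.223 to 0.305 RPM at 8 weeks to 58.0 to 69.9 RPM at 20 weeks. Chdh, a choline dehydrogenase gene opposite Cacna1d, went from 0.947 to 3.83 RPM to 14.3 to 16.7 RPM. At 20 weeks Kcnip1 stood at 1057 to 1383 RPM and Cacna1d at 592 to 766 RPM. Such levels cannot be set side by side without regard to length, as introns sum to 358 kb in Kcnip1 and 6.44 kb in Kcnmb1. Dcp1b, a decapping factor gene opposite Cacna1c, went from 16.8 to 26.2 RPM to 29.2 to 35.5 RPM, and Cacna1c stood at 647 to 982 RPM at 20 weeks. Which gene of a pair the reads came from was not tested. Tssc4, opposite Trpm5, stood at 19.9 to 28.2 RPM and 19.2 to 21.9 RPM. Dcp1a, also opposite Cacna1d, stood at 22.7 to 31.0 RPM and 27.5 to 38.0 RPM. Opposite Slc8a1, Gm11096 went from 0 reads in the 4 libraries of 8 weeks to 0.289 to 0.447 RPM, and Tpsg1, opposite Cacna1h, went from 4 reads over those libraries, at most 0.0129 RPM, to 0.148 to 0.409 RPM. Kcnq1 lies opposite Kcnq1ot1, a long noncoding RNA known to be transcribed from the paternal allele, which was not analysed here, so the source of the Kcnq1 rise within that locus cannot be told apart. The partner of Trpm4, the pseudogene Rpl14-ps1, was not analysed here either. The parent gene of this pseudogene, Rpl14, stood at 19.3 to 22.0 RPM at 8 weeks and 13.9 to 17.7 RPM at 20 weeks.

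**Figure D5:**
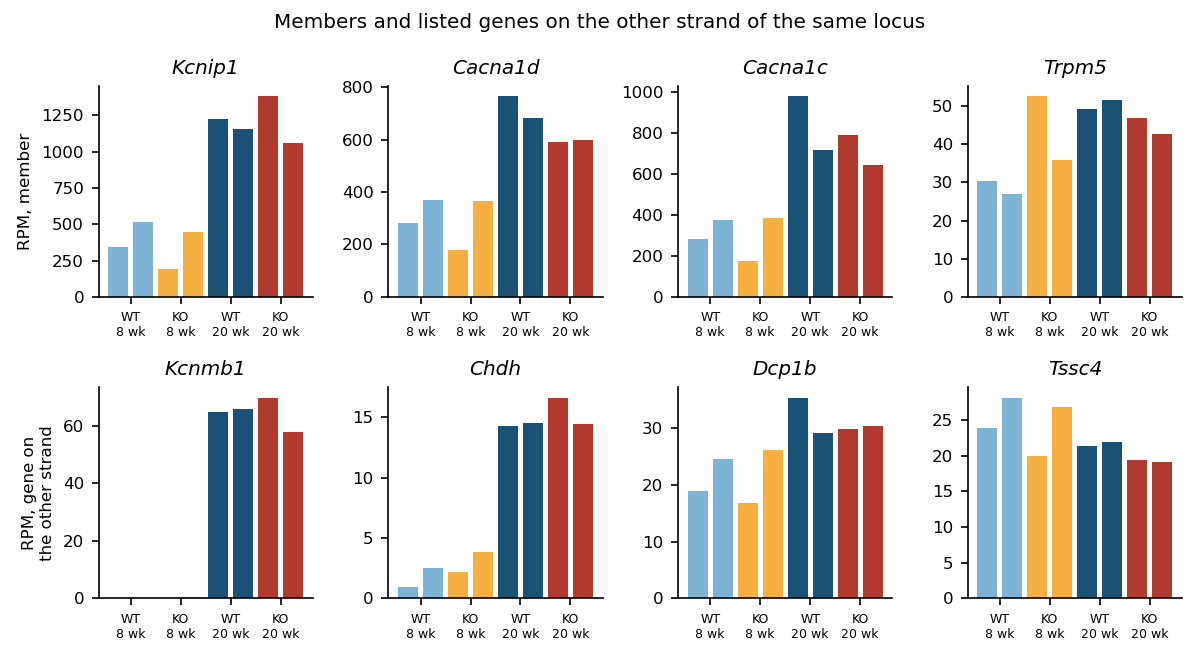
RPM of Kcnip1, Cacna1d, Cacna1c and Trpm5 (upper row) and of a gene on the opposite strand of each (lower row) in the 8 libraries, by group; each bar is 1 library and each panel has its own axis from 0. Kcnmb1 goes from under 0.4 RPM at 8 weeks to 58.0 RPM or more at 20 weeks, beside Kcnip1, whereas Tssc4 does not rise beside Trpm5.

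Other ion channel and calcium genes, 163 in all and listed by family rather than by how they moved, were read beside these 35, and 118 were tested. None was called for genotype at either setting or for the interaction. For setting, 60 were called higher and 6 lower, beside 31.2% and 6.05% of all genes tested. In the class of longest introns 65.8% of all genes were called higher, and these lists were not split by intron length. Of the 60 and 6, 25 and 2 were among the 43 other potassium channel genes tested. The other voltage-gated calcium channel genes had 4 of 8 called higher and 0 lower, and the other TRP and endolysosomal pore genes 9 of 12 and 0. Other sodium and leak channel genes had 4 of 11 higher and 3 lower, other anion channel genes 6 of 15 and 0, and other calcium-handling genes 12 of 29 and 1. The largest change was that of Kcnmb1, which lies opposite Kcnip1 as given above, at 5.71 ± 0.14 on the log2 scale (limma adjusted p = 4.9e-16). Among further genes, Kcnab1, a cytoplasmic potassium channel subunit, went from 2.01 to 13.6 RPM in the mean of 4 libraries and Kcnd2, an A-type pore, from 7.86 to 39.5 RPM. Trpm3, a steroid-sensitive channel of beta cells, went from 195 to 500 RPM at 8 weeks to 1139 to 1490 RPM at 20 weeks. Pln, the SERCA inhibitor phospholamban, went from at most 0.134 RPM to 1.67 to 2.94 RPM, and Nalcn, the sodium leak channel, from 55.4 to 86.1 RPM to 121 to 142 RPM. Kcnd2 and Nalcn, with summed introns of 509 and 336 kb, overlap 0 genes on the opposite strand.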

How the data were processed

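RNA-seq of mouse islets was deposited as 1 table of RPM values for 22632 genes in 8 libraries, made by the authors from ribosome-depleted (RiboZero) TruSeq libraries, per the labels' protocols. Per the submitters' processing notes, CASAVA 1.8, FastQC and TopHat 1.4.1 were used with the mm9 build. The sources used here do not give the counting tool or the region counted. Reads were whole within 0.01 read for 100% of values after multiplying each RPM by its library total, and edgeR 4.0.16 (quasi-likelihood, TMM) on these recovered reads called 19 of the 34 tested channel genes for setting on average, and 1 gene higher and 23 lower of all genes for genotype at 8 weeks.

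Log2(RPM + 1) values of the 13347 genes that reached 1 RPM in 2 or more libraries were fitted with limma 3.58.1 (mean-variance trend, means of the 4 groups, 4 residual and 14 prior degrees of freedom), with p-values adjusted by Benjamini-Hochberg over all of them and a threshold of 0.05. All adjusted p-values are limma's unless edgeR is named, ± is the standard error, and this scale understates fold changes of low genes. Every value by library was given for 9 genes best known in beta cells, the 10 called genes with the largest change and the 3 with the smallest p in each genotype contrast. The genes and lists were chosen with earlier results of these data known. Of the identifiers, 20750 (91.7%) matched GENCODE M21 on GRCm38, not the authors' build, used for lengths and overlaps only. Other fits changed the scaling, filter, pseudocount (0.1), trend, libraries or test, added the acinar markers as a covariate, left out genes overlapping the other strand, or removed a loess (span 0.5) on intron length. R 4.3.3, Python 3.11.15, pandas 2.3.3 and matplotlib 3.10.9 were used.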

Additional observations from a re-analysis of the deposited data

How the results depend on the processing

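No paired analysis was possible because the labels carry no shared replicate numbers. For genotype, leaving out 1 library gave 0 to 2 genes called at 8 weeks, fitting only the libraries of 20 weeks gave 1 at that age, and the interaction gave 0 in each fit run. For setting in wild type, 10 genes became 2 with no filter, 16 with only those libraries fitted, 6 with the acinar covariate, 1 without genes that overlap the other strand and 3 to 16 without 1 library. For setting in knockout-labelled libraries, 14 became 2, 1 and 4 to 16 with no filter, without overlapping genes and without 1 library. On average over genotypes, 17 became 9 with no filter, 2 of 8 without overlapping genes and 12 to 22 without 1 library. Leaving out overlapping genes left 8 of the 34 to test, and for the others the cause was not tested. The share of all genes called with no filter or without 1 library is not given here. Median-of-ratios scaling split the calls as 13 higher and 2 lower for wild type and 14 higher and 6 lower for knockout, and removal of the intron trend as 6 higher and 4 lower, then 4 higher and 9 lower. These log2 fold changes for setting changed sign, and none had passed the test except Cacna2d1, Itpr2, Kcnma1, Slc8a1 and Stim1. With the acinar covariate they were 0.038 for Trpm2, 0.0233 for Orai1, 0.15 for Kcnk3 and 0.00872 for Atp2a3. With edgeR and median-of-ratios scaling in turn they were -0.20 and -0.19 for Kcnh2, -0.16 and -0.14 for Kcnh6, -0.20 and -0.17 for Scn9a, -0.14 and -0.12 for Itpr1, and -0.0494 and -0.035 for Itpr3. With the intron trend removed they were -0.0634 for Stim1, -0.10 for Slc8a1, -0.17 for Itpr3, -0.40 for Itpr2, -0.73 for Itpr1, -0.0378 for Cacna2d1, -0.56 for Scn9a, -0.11 for Scn3a, -0.0484 for Kcnma1, -0.0576 for Kcnh6, -0.15 for Kcnh2 and -0.0152 for Clcn3. Without 1 library they ran from -0.0694 to 0.13 for Kcnh2, -0.11 to 0.28 for Kcnh6, -0.37 to 0.21 for Kcnk3, -0.16 to 0.25 for Scn9a, -0.18 to 0.0947 for Trpm2, -0.13 to 0.34 for Itpr1 and -0.0849 to 0.0721 for Orai1. For genotype at 8 weeks, Abcc8 turned to 0.19 with the acinar covariate and 0.0392 with the intron trend removed, and without 1 library ran from -0.35 to 0.32, as Kcnj11 did from -0.0498 to 0.46. Depth was lowest for Ryr2, with 24 to 191 reads a library, and Kcnj5, with 1 to 39.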
